A study of Homo sapiens with 6 samples.

Results

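The enzymes that make serine and pass its carbon to folate were examined in the Cal33 cell line, which derives from a human oral squamous cell carcinoma. The members were 9 genes chosen by name: PHGDH, PSAT1, PSPH, SHMT1, SHMT2, MTHFD1, MTHFD2, MTHFD1L and ALDH1L2. Each had 1 entry among the 14136 gene entries of the deposited table. The study compared Cal33 cells stably infected with lentivirus carrying an empty pSin-EF2 vector (Vector, n = 3) with cells given the same vector encoding FLAG-tagged CES2 (CES2, n = 3). CES2 is carboxylesterase 2, an ester-cleaving hydrolase of the endoplasmic reticulum. Both groups had been selected with puromycin and grown in DMEM with serum, and virus was packaged in 293FT, an embryonic kidney line. The labels do not state whether replicate libraries are separate infections or cultures, so the p-values reflect the spread of these 6 libraries alone and that spread may be technical. Values are TPM, given in the order of replicates 1, 2 and 3, and TPM is transcript abundance scaled to the same total in each library, which allows genes to be compared per length but keeps no sequencing depth, so the depth is unknown.

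Serine is made from the glycolytic intermediate 3-phosphoglycerate by PHGDH, PSAT1 and PSPH, acting in that order in the cytosol. The SHMT enzymes then split serine into glycine and a carbon unit carried on tetrahydrofolate. Mitochondrial enzymes (SHMT2, MTHFD2, MTHFD1L) oxidise that unit to formate, which the cytosolic enzyme MTHFD1 returns to folate for purine, thymidylate and methionine synthesis. Many tumours raise this pathway, and the transcription factor ATF4 is a known activator of several of its genes.

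Several of these enzymes are paralogues, so the letters they share bear on whether reads of one could have been counted for another. The longest identical run between the transcripts that the table lists is shown for each pair, read from GENCODE release 29 on GRCh38 in the sense of the transcript. ALDH1L1 has no entry, so its 18 GENCODE transcripts were used.
SHMT1 and SHMT2: caacaagaacacctgtcc
MTHFD1 and MTHFD1L: ccaagtgacattga
MTHFD2 and MTHFD2L: aatgtggttgtggctggaag
ALDH1L2 and ALDH1L1: gttccagacaaggatggaaa
These runs are 18, 14, 20 and 20 bases long, and all lie in coding sequence. The SHMT1 run is in exon 9 (chr17:18330557-18330574, minus strand), the MTHFD2 run in exon 5 (chr2:74209962-74209981, plus strand) and the ALDH1L2 run in exon 2 (chr12:105073875-105073894, minus strand). The MTHFD1 run crosses the junction of exons 10 and 11 (between chr14:64425823 and chr14:64426027, plus strand). None of these members shared a stretch of 50 bases with its paralogue. Pseudogenes are closer copies. Of all 50-base stretches of the listed transcript, 5.37% in PSPH, 4.41% in PSAT1, 3.02% in MTHFD1, 2.52% in MTHFD2 and 1.21% in SHMT1 also occur in a pseudogene named after the gene, so the values of these 5 genes are uncertain to the extent that reads were shared. Other genes of the table overlap on the opposite strand at SHMT1 (SMCR8), SHMT2 (NDUFA4L2), MTHFD1 (ZBTB25), MTHFD2 (SLC4A5) and ALDH1L2 (C12orf45), and how strand was used in counting is not given in the sources used here.

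Promoter windows, from 250 bases before to 50 after the RefSeq start (GRCh38.p14), were found for 6 of the 9 genes: PHGDH, PSAT1, SHMT1, MTHFD1, MTHFD2 and MTHFD1L. They were searched on both strands for TGATGNAAN, the C/EBP-ATF response element bound by ATF4 with its partners, and for CACGTG, the E-box that MYC can bind. Matches to these 2 motifs did not overlap. MTHFD1L held both motifs and MTHFD1 held an E-box. These were all the matches, so the response element was in 1 and the E-box in 2 of the 6 windows. Those of PHGDH, PSAT1, SHMT1 and MTHFD2 held neither motif. Capitals mark the motif.
MTHFD1L response element: ccgccggctcTGATGCAATcgcgccgggc
MTHFD1L E-box: cgcccggctcCACGTGcgcagccggc
MTHFD1 E-box: agtccctaagCACGTGggttgggtt
The stretches lie at chr6:150866347-150866375, chr6:150866322-150866347 and chr14:64388328-64388352, all on the plus strand. The response element was present in 3.67% and the E-box in 7.43% of 27305 promoter windows. A match is a description of the letters and not evidence of binding. The listed transcript of MTHFD1 starts upstream of the RefSeq start, so its E-box falls in an exon of that transcript. That of MTHFD1L starts at chr6:150865549, upstream of both its motifs, which lie within that transcript but outside its exons. That of PHGDH starts at chr1:119648411, upstream of its whole searched window (chr1:119711684-119711983).

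CES2, the gene that was overexpressed, checked the labels: the Vector libraries held 45.6, 41.9 and 44.9 TPM and the CES2 libraries 2664, 1929 and 2294 TPM, a log2 fold change of 5.66 (SE 0.18, adjusted p = 7.38e-06, limma with Benjamini-Hochberg adjustment). It was the only one of 12210 tested genes past the adjusted threshold of 0.05, which is 0.00819% of them. Over all tested genes the log2 fold change had a median of -0.06. Summed squamous epithelial markers (9 of 9 in the table) were at 4322 to 5611 TPM in Vector and 4243 to 5733 TPM in CES2, although KRT14, a basal keratin, had a mean of only 1.98 TPM. Of 10 markers of other cell types, 5 had an entry, together 27.0 to 37.6 TPM, among them the endothelial cadherin CDH5 at 8.25 to 25.3 TPM, the macrophage marker CD68 at 5.47 to 11.6 TPM and the collagen gene COL1A1 at 3.89 to 10.5 TPM. The other endothelial marker, PECAM1, was lower at 0.13 to 0.55 TPM, and NEFL, a packaging line marker, was at 0.27 TPM or less. The leukocyte marker PTPRC, the fibroblast markers DCN, PDGFRA and COL1A2 and the packaging line marker LIN28B had no entry. Libraries of the same group differed along 1 main component, which held 59.5% of the within-group variation when the members were left out. Vector 1 and CES2 2 scored 0.52 and 0.49 on it, against -0.39 for Vector 2 and -0.57 for CES2 3, so the component runs across the groups.

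None of the 8 tested enzymes passed the threshold in either direction, and 0 of the 8 had an unadjusted p under 0.05 (limma), where 1.09% of all tested genes did. The members are described here by their levels, by the one gene whose groups did not overlap and by how they moved between libraries. All the fold changes below are differences on the log2(TPM + 1) scale, and every one of the 8 adjusted p-values was 1.00.

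PHGDH, PSAT1 and PSPH form the serine arm. PHGDH (chr1:119648411-119744190, plus strand, 15 exons in the listed transcript) oxidises 3-phosphoglycerate and commits it to serine. Vector libraries held it at 444, 233 and 300 TPM, and CES2 libraries at 308, 360 and 203 TPM. Vector 1 and CES2 2 were the highest libraries of their groups, Vector 2 and CES2 3 the lowest, and the groups overlapped. The means were 326 ± 107 and 290 ± 79.9 TPM (SD, n = 3 each), which is a log2 fold change of -0.15 (SE 0.29). The sign rested on single libraries, since the log2 fold change was 0.095 without Vector 1 and 0.083 without CES2 3.

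PSAT1 (chr9:78297143-78329454, plus strand, 8 exons) transfers an amino group from glutamate in the next step. For the 3 Vector libraries it gave 286, 371 and 303 TPM, compared with 327, 224 and 308 TPM for CES2. Vector 2 was the highest library, CES2 2, which was high for PHGDH, was the lowest, and the groups overlapped. The means were 320 ± 45.1 and 287 ± 54.8 TPM (SD, n = 3 each), with a log2 fold change of -0.17 (SE 0.21). It was 0.010 with library weights, which are set by how far the genes of a library lie from the fitted group means. CES2 1 then weighed 6.86 and the others 0.51 to 1.12. The log2 fold change was -0.0019 without CES2 2, -0.06 without Vector 2 and -0.27 without CES2 1.

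PSPH (chr7:56011051-56051448, minus strand, 7 exons) removes the phosphate to release serine. It measured 92.7, 82.5 and 97.1 TPM in the Vector libraries against 77.3, 73.3 and 80.8 TPM in those with CES2. All 3 CES2 libraries lay below all 3 Vector libraries, and PSPH was the only one of the 8 tested members whose groups did not overlap. Among all tested genes, groups were apart in this direction for 2.63% and in the other for 1.07%. The gap between the nearest libraries was small: the lowest Vector library was at 82.5 TPM and the highest CES2 library at 80.8 TPM. The means were 90.8 ± 7.52 and 77.2 ± 3.75 TPM (SD, n = 3 each), and the log2 fold change was -0.23 (SE 0.17, unadjusted p = 0.207, adjusted p = 1.00, limma). The two-sided exact permutation test gave p = 0.1, the smallest that 3 against 3 allows. Any gene whose groups do not overlap gets this value. The within-group spread of PSPH, an SD of 0.10 on the log2 scale, was at percentile 2.50 of all tested genes. Its log2 fold change stayed below 0 in all 15 alternatives, from -0.30 to -0.17, with adjusted p from 0.945 to 1.00. Because the groups did not overlap, only median rescaling or quantile normalization could have turned the sign. The log2 fold change of PSPH was -0.17 with the former and -0.21 with the latter.

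**Figure D1:**
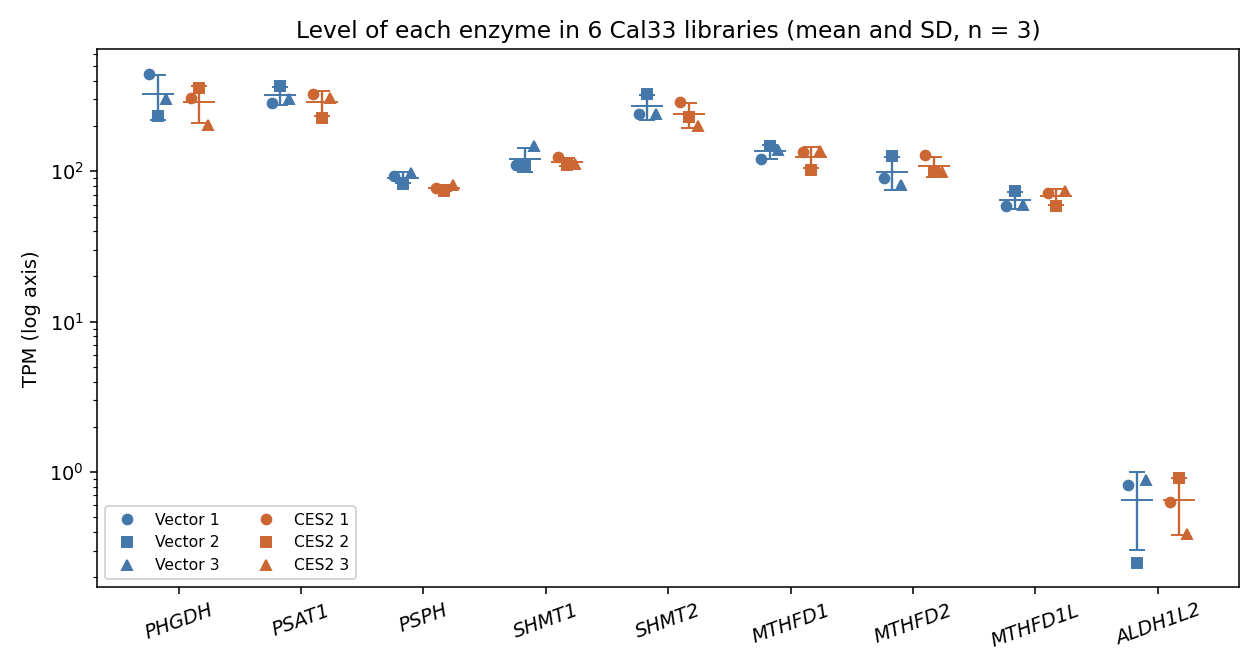
Level of the 9 enzymes in TPM on a log axis. Points are the 6 libraries, with the horizontal bar and whiskers showing mean and SD of each group (n = 3). PHGDH, PSAT1 and SHMT2 lie between 199 and 444 TPM, ALDH1L2 lies below 1 TPM, and PSPH alone has groups that do not overlap among the 8 tested enzymes.

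SHMT1 and MTHFD1 are the cytosolic folate enzymes. SHMT1 (chr17:18327860-18363563, minus strand, 11 exons) interconverts serine and glycine. Vector libraries held it at 109, 108 and 147 TPM, and CES2 libraries at 124, 110 and 112 TPM. Vector 3 stood above the other 5 libraries, and without it the log2 fold change was 0.086, against -0.06 (SE 0.19) with all libraries. The sign also turned with median rescaling (0.0027), so no direction can be given. The means were 121 ± 22.2 and 115 ± 7.63 TPM (SD, n = 3 each).

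MTHFD1 (chr14:64388031-64463457, plus strand, 27 exons) joins 3 folate activities in 1 protein and charges folate with formate. For the 3 Vector libraries it gave 120, 148 and 139 TPM, compared with 135, 101 and 136 TPM for CES2. CES2 2 was the lowest library and the groups overlapped. The means were 136 ± 14.2 and 124 ± 19.9 TPM (SD, n = 3 each), with a log2 fold change of -0.13 (SE 0.19) that was 0.0061 without CES2 2.

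SHMT2, MTHFD2, MTHFD1L and ALDH1L2 act in mitochondria. SHMT2 (chr12:57229327-57234931, plus strand, 12 exons) feeds serine carbon into that compartment. It measured 239, 328 and 242 TPM in the Vector libraries against 287, 231 and 199 TPM in those with CES2. Vector 2 was highest and CES2 3 lowest, and the groups overlapped. The means were 270 ± 50.6 and 239 ± 44.9 TPM (SD, n = 3 each), which is a log2 fold change of -0.18 (SE 0.21) that turned to 0.088 with library weights. It was -0.026 without Vector 2, -0.051 without CES2 3 and -0.32 without CES2 1.

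MTHFD2 (chr2:74198562-74217565, plus strand, 8 exons) is the mitochondrial dehydrogenase and cyclohydrolase, an enzyme of embryos and tumours that most adult tissues hold at low level. Vector libraries held it at 90.1, 127 and 80.8 TPM, and CES2 libraries at 127, 98.5 and 98.5 TPM. Vector 2 and CES2 1 stood level at the top, above the other 4 libraries. The means were 99.2 ± 24.3 and 108 ± 16.6 TPM (SD, n = 3 each), which is a log2 fold change of 0.14 (SE 0.22).

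MTHFD1L (chr6:150865549-151101887, plus strand, 28 exons) releases formate from folate for export. For the 3 Vector libraries it gave 59.0, 73.7 and 60.0 TPM, compared with 71.5, 58.3 and 74.1 TPM for CES2. The highest and the lowest library were both CES2 libraries. The means were 64.2 ± 8.25 and 68.0 ± 8.44 TPM (SD, n = 3 each), which is a log2 fold change of 0.08 (SE 0.19). MTHFD2 and MTHFD1L were the only tested members with fold changes above 0, and both stayed above 0 in all 15 alternatives, with adjusted p of 0.945 or more. Single libraries took them close to 0: over the libraries left out in turn, MTHFD2 ranged from 0.0061 (without Vector 3) to 0.33 (without Vector 2) and MTHFD1L from 0.015 (without CES2 3) to 0.18 (without CES2 2). Alternatives that changed only the replicate block, the filter or the trended prior could not move these estimates.

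ALDH1L2 (chr12:105019790-105084577, minus strand, 23 exons) oxidises the mitochondrial formyl unit to carbon dioxide. It measured 0.826, 0.250 and 0.881 TPM in the Vector libraries against 0.634, 0.918 and 0.390 TPM in those with CES2, below the filter of 1 TPM in every library, and was not tested by limma. The group means were 0.652 ± 0.350 and 0.647 ± 0.264 TPM (SD, n = 3 each), and the groups overlapped (two-sided exact permutation test, p = 1).

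Ordered by mean TPM over the 6 libraries, the enzymes fell into 3 tiers. PHGDH (308 TPM), PSAT1 (303 TPM) and SHMT2 (254 TPM) were the most abundant. PHGDH and PSAT1 did not differ beyond their spread, with PHGDH higher in 2 of 6 libraries. SHMT2 was 1.96 times MTHFD1, and its lowest library (199 TPM) was above the highest of MTHFD1 (148 TPM). From MTHFD1 (130 TPM) through SHMT1 (118 TPM), MTHFD2 (104 TPM) and PSPH (84.0 TPM) to MTHFD1L (66.1 TPM), each neighbour's range overlapped the next. ALDH1L2 (0.650 TPM) stood alone, 102-fold below MTHFD1L. Each entry lists 1 transcript, and the file does not say whether a value is that of the transcript or the whole gene, which limits comparisons between genes. The transcripts listed for PSAT1, PSPH, SHMT1 and MTHFD1 are not tagged as principal isoforms in GENCODE release 29. Those of PSAT1 and SHMT1 hold 972 and 1035 coding bases, where the longest coding sequence of the gene has 1110 and 1449. This bears on the rank of PSAT1 beside PHGDH and on the ratios to SHMT1 and MTHFD1.

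**Figure D2:**
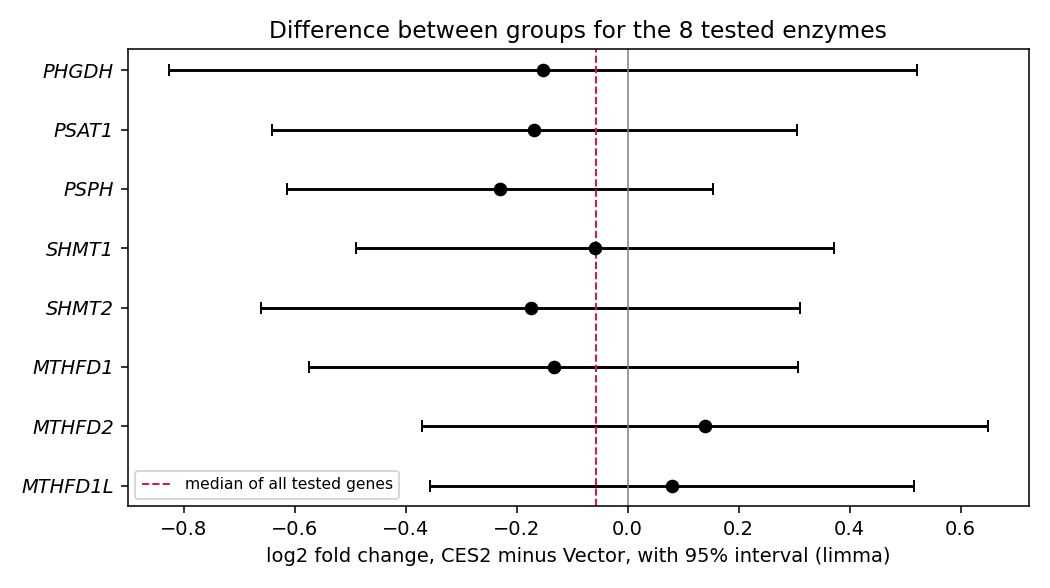
Log2 fold change, CES2 minus Vector, of the 8 tested enzymes with 95% intervals from limma (3 libraries a group). The dashed line marks the median of all tested genes, -0.06. Every interval includes 0 and the dashed line.

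The intervals set what these libraries could show. The 95% interval of the log2 fold change was -0.61 to 0.15 for PSPH, -0.83 to 0.52 for PHGDH and -0.37 to 0.65 for MTHFD2. For SHMT1 it was -0.49 to 0.37 and for MTHFD1L -0.36 to 0.52. With all 6 libraries the intervals of all 8 enzymes left out a change of 1 log2 unit in either direction. For PHGDH this did not hold when Vector 2, Vector 3, CES2 1 or CES2 2 was left out, with lower bounds from -1.09 to -1.04. The median log2 fold change of the 8 was -0.14, against -0.06 for all tested genes. Of the 8, 6 were below 0 (75.0%), where 63.7% of all tested genes were. With median rescaling 5 of 8 were below 0 (48.6% of all tested genes), and with quantile normalization 6 of 8 (52.8% of all tested genes).

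The spread between libraries had a structure of its own. The order of the 6 libraries by PHGDH level (Vector 1, CES2 2, CES2 1, Vector 3, Vector 2, CES2 3) was the same as their order on the main within-group component, which was computed without the members. That order held for 2.03% of all tested genes. The component took up 97.3% of the within-group variation of PHGDH, against a median of 50.6% for tested genes. MTHFD1 (74.2%), MTHFD1L (66.8%) and PSAT1 (55.1%) followed the component in the opposite direction. In these 3 genes Vector 1 was the lowest Vector library and CES2 2 the lowest CES2 library. MTHFD2 (5.93%), SHMT1 (1.30%), PSPH (0.712%) and SHMT2 (0.285%) had little of their variation on it. Along this component PHGDH and PSAT1, which catalyse consecutive steps, had opposite signs. Vector 2 was the highest Vector library in 5 of the 8 tested genes and CES2 2 the lowest CES2 library in 5. The shares of all tested genes with these extremes were not computed, so these counts are not read as a trait of the enzymes. What this component reflects was not tested.

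**Figure D3:**
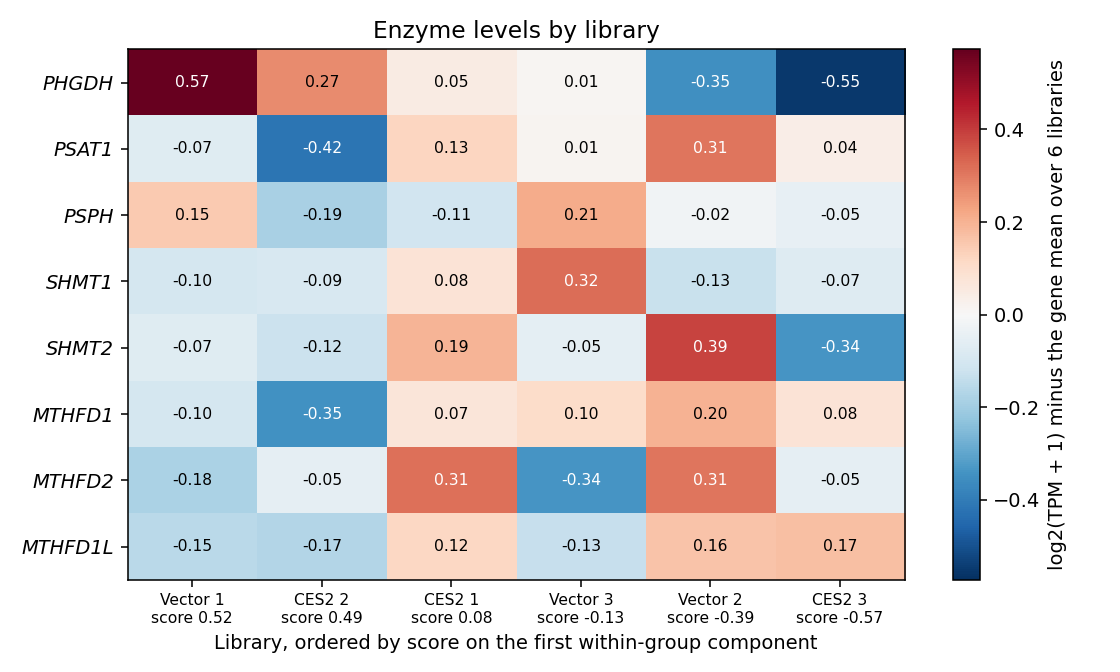
Level of the 8 tested enzymes in each library as log2(TPM + 1) minus the gene's mean over the 6 libraries, with libraries ordered by their score on the main within-group component. PHGDH runs from 0.57 in Vector 1 to -0.55 in CES2 3 in the order of the score, PSAT1 is lowest in CES2 2 (-0.42), and PSPH is above or near its mean in Vector and below it in all 3 CES2 libraries.

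The genes closest in pattern were found by the root mean square difference of log2(TPM + 1) profiles over the 6 libraries, each centred on its mean. This was done for the most variable member of each arm. For PHGDH (SD 0.41) the nearest of the tested genes were IQSEC2, RAB31, PLB1, GRAMD2B and HIBADH, at 0.035 to 0.049 log2 units, where the median gene was at 0.42. Vector libraries held HIBADH, a mitochondrial dehydrogenase of valine breakdown, at 145, 82.6 and 105 TPM, and CES2 libraries at 102, 126 and 72.6 TPM. For MTHFD2 (SD 0.26) the nearest were MRPL52, MRPL54, FAM241A, NCBP2-AS2 and YBX1, at 0.036 to 0.084 log2 units, with the median gene at 0.40. For the 3 Vector libraries MRPL52, a subunit of the mitochondrial ribosome, gave 80.9, 114 and 69.3 TPM, compared with 111, 91.4 and 86.6 TPM for CES2. Vector 2 and CES2 1 were its highest libraries, as for MTHFD2, which follows from its selection as the nearest profile. NCBP2-AS2 is antisense to another gene. The libraries were strand-specific, but how strand was used in counting is not given, so its reads may not be told apart from that gene's. All genes share the same 6 libraries, and the likeness is given as a description.

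Ratios within a library do not depend on how that library was scaled. The ratio of mitochondrial MTHFD1L to cytosolic MTHFD1, the enzymes that act on formate at either end of the cycle, came to 0.491, 0.498 and 0.432 for the Vector libraries and 0.529, 0.576 and 0.544 for CES2. Each CES2 library was above each Vector library. The means were 0.474 ± 0.036 and 0.550 ± 0.024 (SD, n = 3 each), a log2 difference of 0.22, which stayed between 0.15 and 0.25 when each library was left out in turn. For comparison, the ratio to MTHFD1 was likewise apart and higher in CES2 for 2.48% of 12209 other tested genes. This was 1 of 3 ratios examined and was not tested.

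The ratio of MTHFD2 to MTHFD1 came to 0.750, 0.856 and 0.582 for Vector and 0.941, 0.974 and 0.724 for CES2. The groups overlapped through CES2 3, and the log2 difference of 0.28 was close to the within-group SD of 0.26. The ratio of SHMT2 to SHMT1 came to 2.19, 3.05 and 1.64 for Vector and 2.31, 2.09 and 1.78 for CES2. The mitochondrial enzyme was the more abundant of that pair in all 6 libraries. The log2 difference between groups was -0.12 and turned to 0.11 without Vector 2.

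**Figure D4:**
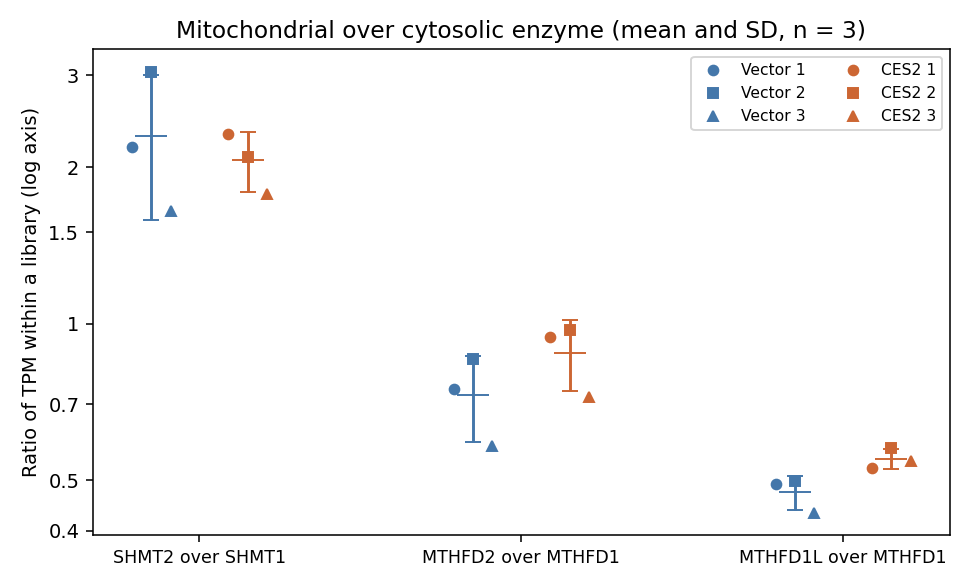
Ratio of TPM of the mitochondrial to the cytosolic enzyme within each library, on a log axis, with mean and SD of each group (n = 3). The groups overlap for SHMT2 over SHMT1 and for MTHFD2 over MTHFD1, and are apart for MTHFD1L over MTHFD1, at 0.432 to 0.498 in Vector and 0.529 to 0.576 in CES2.

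Genes around the enzymes were examined as 5 lists by role. None of their members passed over all genes in either direction, and 0 had an unadjusted p under 0.05 (limma). Folate carriers and other folate enzymes had 11 tested members, all 11 below 0 where 63.7% of all tested genes were, with a median log2 fold change of -0.08. With median rescaling 7 of the 11 were below 0, against 48.6% of all tested genes, and with quantile normalization 8, against 52.8%. The sign common to all 11 thus depended on scaling. The fold changes of the mitochondrial folate carrier SLC25A32, the plasma membrane carrier SLC19A1 and the MTHFD2 paralogue MTHFD2L lay between -0.10 and -0.08.

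Genes of glycine cleavage and of serine or glycine use had 14 tested members, 9 below 0, with a median of -0.14 that was -0.07 with median rescaling and -0.06 with quantile normalization. The groups of 1 member did not overlap, which is 7.14% of 14 against 3.70% of all tested genes in either direction. This was SPTLC1, a subunit of the enzyme that joins serine to palmitoyl-CoA to begin sphingolipid synthesis, named after its values were seen. It held 120, 111 and 122 TPM in the Vector libraries and 97.8, 96.1 and 102 TPM with CES2 (log2 fold change -0.25, SE 0.16, adjusted p = 1.00, limma). The glycine decarboxylase GLDC had no entry in the table, and AMT, another component of that system, was below the filter. GCSH, the carrier protein of glycine cleavage, was at 42.4 ± 9.33 and 45.3 ± 6.82 TPM (SD, n = 3 each). SFXN1, the mitochondrial serine transporter, was at 76.4 ± 12.2 and 72.1 ± 14.6 TPM. The neutral amino acid transporters SLC1A4 and SLC1A5 had log2 fold changes of 0.19 and -0.19.

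Methionine cycle and transsulfuration genes had 9 tested members, 7 below 0, with a median of -0.04. That median turned to 0.02 with median rescaling and was -0.03 with quantile normalization. AHCY, which breaks down S-adenosylhomocysteine, was the most abundant of those named at 630 ± 27.6 and 672 ± 21.0 TPM (SD, n = 3 each). MAT2A, which makes S-adenosylmethionine, ranged from 194 TPM in CES2 2 to 451 TPM in Vector 2. Log2 fold changes were -0.20 for the methionine synthase MTR, and -0.04 and 0.07 for the transsulfuration enzymes CBS and CTH.

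Purine and thymidylate synthesis, which consume the carbon units, had 11 tested members, 9 below 0, with a median of -0.04. That median turned to 0.02 with median rescaling but was -0.04 with quantile normalization. PAICS, a purine enzyme, measured 124, 173 and 226 TPM in the Vector libraries against 160, 99.6 and 90.5 TPM in those with CES2. Its groups overlapped through CES2 1 and its log2 fold change was -0.58 (SE 0.29, unadjusted p = 0.0793, adjusted p = 1.00, limma). Fold changes of the purine enzymes GART and ATIC and of the thymidylate synthase TYMS lay between -0.05 and -0.02.

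Regulators and other ATF4 targets had 27 tested members, 14 below 0, with a median of -0.04 that turned to 0.02 with median rescaling and 0.05 with quantile normalization. Vector libraries held ATF4 itself at 585, 485 and 411 TPM, and CES2 libraries at 444, 462 and 440 TPM. The 3 CES2 libraries lay inside the Vector range. For the 3 Vector libraries MYC, another activator of these pathways, gave 12.3, 18.0 and 54.3 TPM, compared with 8.37, 10.9 and 16.9 TPM for CES2, with Vector 3 far above the other 5 libraries. Log2 fold changes of the amino acid response genes were -0.12 for ASNS, -0.22 for TRIB3, 0.20 for DDIT3, 0.53 for CHAC1, 0.23 for the cystine carrier SLC7A11 and 0.0049 for PYCR1, which makes proline.

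**Figure D5:**
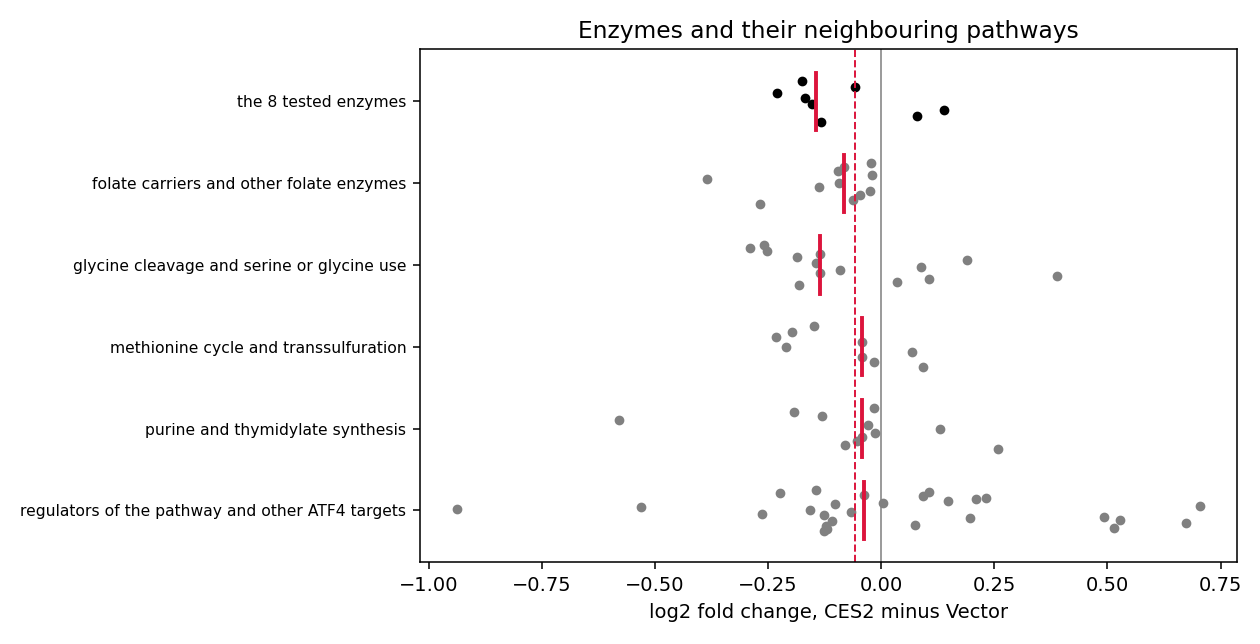
Log2 fold change, CES2 minus Vector, of each tested gene among the enzymes and the 5 neighbouring lists. Points are genes, red bars are list medians and the dashed line is the median of all tested genes, -0.06. List medians lie between -0.14 and -0.04. The 8 tested enzymes span -0.23 to 0.14 and the 27 tested regulators -0.94 to 0.70. These ranges come from unequal numbers of genes and are not compared.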

How the data were processed

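RNA of 6 Cal33 libraries, ribosomal RNA removed and strand-specific per the labels' protocols, was deposited by the authors as 1 table of TPM values. The header names no unit, and column totals of 999804 to 999893 identify it. Per the submitters' processing notes, the tools were StringTie 1.3.3, HISAT2 2.1.0 and edgeR 3.0.8, with no role stated, and the build was GRCh38 (hg38). The sources used here do not give the annotation or filters. Blanks (607 entries in at least 1 library) were read as 0.

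Groups came from the sample titles. The 12210 genes that reached 1 TPM in 3 or more libraries were taken as log2(TPM + 1), which understates changes of low genes. They were compared by limma (version 3.58.1, R 4.3.3) using a trended prior, group as the only term and Benjamini-Hochberg adjustment at 0.05. The fit was tested on simulated data with noise independent between genes and libraries, which lack the shared within-group component of these libraries. Gene positions and transcripts were compared with GENCODE release 29, and all 9 listed transcripts had the same coordinates. Promoters are from RefSeq, GRCh38.p14. Python 3.11.15 was used for sequences and plots. Named genes were all members, CES2, genes marked by role in each list (some are not reported here), and the 5 nearest in pattern to 1 member of each arm. The members and lists were chosen with earlier results of these data known. Alternatives covered each library left out, the replicate number as a block, scaling, filters, a pseudocount of 0.1 and the variance model.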

Additional observations from a re-analysis of the deposited data

How the results depend on the processing

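The number of genes past the threshold was 1 and that of members was 0. The number of members was 0 in all 15 alternatives. The number of genes was 1 to 2 when each library was left out in turn (2 without CES2 3), 4 with library weights, where CES2 1 weighed 6.86, and 2 without both Vector 1 and CES2 2, an alternative chosen after seeing the data. With the replicate number as a block it was 1. Deviations of same-numbered libraries correlated at 0.15, -0.52 and 0.37, and Vector 1 correlated best with CES2 2 (0.68). The labels do not state pairing. With 3 libraries a group, these correlations cannot settle whether same-numbered libraries were handled together. Signs of log2 fold changes turned for PHGDH without Vector 1 (0.095) or CES2 3 (0.083), with a range of -0.37 to 0.095 over the libraries left out, for SHMT1 without Vector 3 (0.086; range -0.14 to 0.086) or with median rescaling (0.0027), for MTHFD1 without CES2 2 (0.0061; range -0.22 to 0.0061), and with library weights for PSAT1 (0.010) and SHMT2 (0.088). The cause was not tested. PSPH, MTHFD2 and MTHFD1L kept their sign in all 15. For PSPH only median rescaling or quantile normalization could have turned it. The replicate block, the filters and the trended prior could not change the estimate of any of these genes. Over the libraries left out, values ranged from -0.30 to -0.18 for PSPH, 0.0061 to 0.33 for MTHFD2, 0.015 to 0.18 for MTHFD1L, -0.27 to -0.0019 for PSAT1 and -0.32 to -0.026 for SHMT2. Differences in the ratios ranged, over the libraries left out, from -0.33 to 0.11 for SHMT2 over SHMT1, 0.12 to 0.41 for MTHFD2 over MTHFD1 and 0.15 to 0.25 for MTHFD1L over MTHFD1. TPM keeps no depth, so counting error cannot be separated from the spread between libraries.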

Other observations

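For SLC25A32, TYMS and CBS, genes that supply or use serine carbon and folate, the range within each group was wider than the difference between the group means. This was not particular to these genes, since it also held for every tested enzyme except PSPH. SLC25A32, which carries folate into mitochondria, measured 21.9, 55.5 and 40.0 TPM in the Vector libraries against 37.7, 20.2 and 53.6 TPM in those with CES2. Vector 1 and CES2 2 were its lowest libraries, as they were for PSAT1, MTHFD1 and MTHFD1L. Vector libraries held TYMS at 112, 189 and 204 TPM, and CES2 libraries at 146, 127 and 223 TPM, again lowest in Vector 1 and CES2 2. For the 3 Vector libraries CBS, which draws serine into cystathionine, gave 24.2, 11.8 and 18.6 TPM, compared with 18.8, 24.1 and 10.7 TPM for CES2, and Vector 1 and CES2 2 were its highest libraries, as for PHGDH. These genes were singled out after their values were seen, from those named by role. Others named by role, among them MAT2A and GART, were also lowest in Vector 1 and CES2 2. The shares of all tested genes with such extremes were not computed.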
